A study of Mus musculus with 2 samples.

Results

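The aryl hydrocarbon receptor, its partner, its repressor and 4 of its classic target genes were followed in cultured mouse mast cells given an siRNA against GATA1. The members are the 7 genes Ahr, Arnt, Ahrr, Cyp1a1, Cyp1b1, Tiparp and Nqo1. They were found on the array by gene name among probes that are not controls, which gave 12 of the 55681 probes. Ahr was selected on its difference between these same 2 arrays, seen in an earlier look at them, and the other genes for their known place in its pathway. The Ahr difference below is therefore a description and supports nothing by itself.

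The receptor is a ligand-activated transcription factor of the bHLH-PAS family that binds planar aromatic compounds and metabolites of tryptophan. Without ligand it rests in the cytoplasm with chaperones, and with ligand it enters the nucleus, pairs with ARNT and binds xenobiotic response elements in genes such as Cyp1a1, Cyp1b1, Tiparp and Ahrr. Products of Ahrr and Tiparp in turn restrain the receptor, and mast cells are among the immune cells known to express it.

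Both groups were bone marrow-derived mast cells of C57BL/6 mice, grown for 2 weeks with interleukin 3 and for 2 further weeks with interleukin 3 and stem cell factor, each at 10 ng/mL. Cells of the control group received 200 pmol of a control siRNA and cells of the other group 200 pmol of a GATA1 siRNA, a transient knockdown that lowers the transcript and does not delete the gene. Material from 2 animals was pooled for each siRNA and hybridised to 1 one-colour Agilent array, so no difference has a replicate check and no p-value is given. The age of the animals, the time from transfection to harvest and the part of Gata1 that the siRNA targets are not given in the sources used here. Signals are scanner intensities, and levels are signals divided by the array's 75th percentile (303.2 on the control siRNA array, 340.0 on the GATA1 siRNA array). Differences are log2 values, GATA1 siRNA minus control siRNA, with 1 being 2-fold. The error given after ± is the scanner software's own error of that difference, which covers the array and not the cells or animals. For bright probes it comes from a nearly fixed share of the signal (688 of 6880 and 789 of 7895 for 2 control siRNA spots). It is therefore not a spread measured on these arrays. Errors of genes and of gaps between genes combine those of the probes as if independent.

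Gata1, the targeted gene, has 1 probe on the array. Its signal was 16415 with control siRNA and 3930 with GATA1 siRNA, a difference of -2.23 ± 0.20. All 12 listed mast cell genes were measured on both arrays, 8 of them below 0. Kit stood at 0.03 and Fcer1a at -0.17, and the lowest were the granule proteases Mcpt4 (-0.88) and Tpsb2 (-0.55), the amine transporter Slc18a2 (-0.39) and the interleukin 33 receptor Il1rl1 (-0.32). Measured means here that, by the scanner software, a probe was unsaturated and well above its background on both arrays, and 20519 genes had such a probe. Over these genes the median difference was 0.01 with an SD of 0.29, and the central 95% lay between -0.62 and 0.52.

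Ahr itself was about 2-fold lower in the GATA1 siRNA array, whereas the measured target genes stayed close to their control levels. Of the 7 genes, 6 were measured and 1, Cyp1a1, was well above background on neither array. Ahr was the only one of the 6 past 2-fold, where 0.604% of all measured genes were at least 2-fold lower and 0.292% at least 2-fold higher. The other 5 were all within 1.5-fold. That rule takes in most genes, since 2.77% of all genes were at least 1.5-fold lower and 1.83% at least 1.5-fold higher, so their place within it is nothing particular to them.

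The receptor has 2 probes, both for the transcript NM_013464 and both on the minus strand of chromosome 12 in mouse build mm9, the build of the array annotation. The brighter one (probe 1) lies at 36182724 to 36182783, starting at base 5361 of the transcript, and the dimmer one (probe 2) at 36188523 to 36188582, starting at base 2574. Exon and UTR annotation of these positions was not used here. Probe 1 gave a signal of 6880 with control siRNA and 3706 with GATA1 siRNA, or 22.7 and 10.9 times the 75th percentile of the array. Probe 2 gave 113.2 and 55.6, or 0.373 and 0.163 times the 75th percentile. Both probes were therefore lower on the GATA1 siRNA array, at very different brightness and 5799 bp apart in the genome.

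In log2 terms probe 1 differed by -1.06 ± 0.20 (2.08-fold lower) and probe 2 by -1.19 ± 0.22 (2.28-fold lower), and their mean, the value of the gene, was -1.12 ± 0.15. The 2 probes thus lay 0.13 apart, less than the software error of either, which is not a measured spread. Repeated spots give a second measure of array error: over 55 probes printed several times with signals within 2-fold of probe 1, the median SD of the difference was 0.03, and over 39 such probes near probe 2 it was 0.17. Some patches of the slide hold groups of adjacent spots that differ 4-fold between the arrays, and none of the 12 member spots lies in one. Ahr ranked 80th from the lowest of the 20519 genes, and 0.609% of all measured probes were at least 2-fold lower. Of the 5592 genes with several measured probes, 9 (0.161%) had all of them at least 2-fold lower, Ahr among them. In RNA from whole cultures, fewer Ahr-expressing cells and less Ahr transcript per cell cannot be told apart.

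The 2-fold call for Ahr depends on the background correction. With a correction that adds a fixed offset to every signal (normexp, offset 50), probe 1 stood at -1.02 and the dim probe 2 at -0.74, and the gene at -0.88. With the scaling of the authors' deposited table, probe 1 stood at -0.997, just short of 2-fold, and the gene at -1.06.

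**Figure D1:**
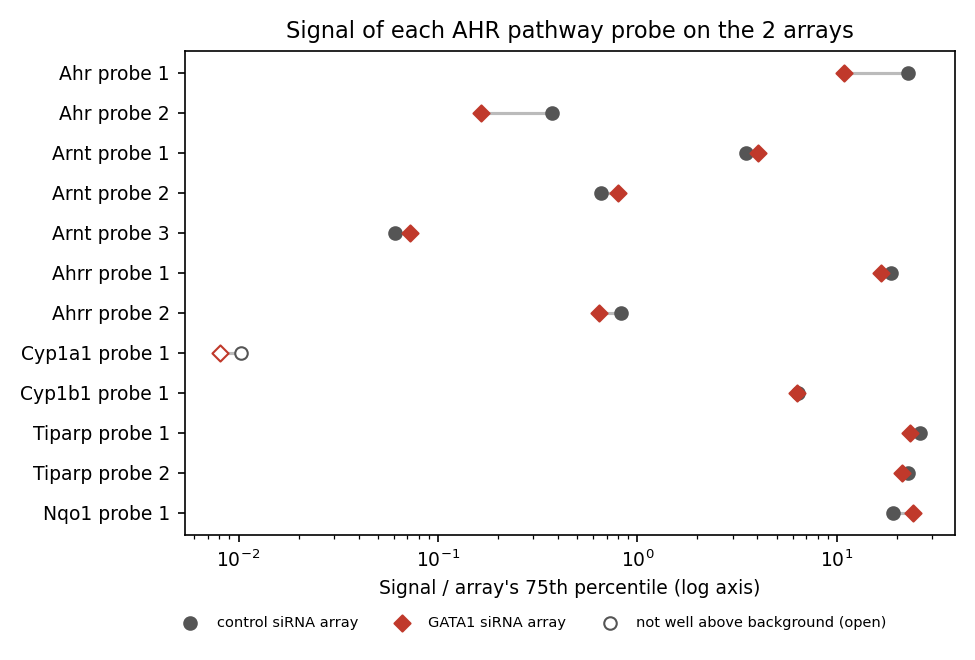
Signal of each of the 12 probes divided by the array's 75th percentile (log axis), with circles for the control siRNA array, diamonds for the GATA1 siRNA array and open symbols for a probe not well above background. Both Ahr probes are displaced to the left on the GATA1 siRNA array (22.7 to 10.9 and 0.373 to 0.163), and the symbols of the other probes lie close together; brightness of different probes is not comparable.

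Arnt encodes the partner that the activated receptor needs to bind DNA, and it also serves the hypoxia factors. Its 3 probes lie on the plus strand of chromosome 3 (mm9). Probe 1, at 95301081 to 95301140, gave 1063 with control siRNA and 1374 with GATA1 siRNA. Probe 2, at 95299434 to 95299493, gave 200.0 and 272.4. Both were slightly brighter on the GATA1 siRNA array, by 0.20 ± 0.20 and 0.28 ± 0.21. Probe 3, at 95264558 to 95264617, belongs to the transcript model ENSMUST00000107160 and gave 18.5 and 24.6, near the lowest signals called well above background (15.2 and 13.3), with a difference of 0.25 ± 0.37. The gene as a whole stood at 0.24 ± 0.16, with an SD of 0.04 between its probes. The direction was thus the same at each Arnt probe and opposite to that of Ahr, except that the dim probe 3 stood at -0.01 with normexp.

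Ahrr encodes the repressor of the receptor, which competes for ARNT and is itself a target gene. Its promoter is shown because it holds several copies of the core of the xenobiotic response element, GCGTG, together with the windows of the other target genes that hold a copy. Windows run from 250 bases before to 50 bases after the annotated start (RefSeq, build GRCm38.p6), read 5′ to 3′ on the gene's strand, with GCGTG or its reverse complement CACGC in capitals. The Ahrr window is chr13:74292282-74292581 on the minus strand, that of Cyp1a1 chr9:57697363-57697662 on the plus strand, that of Cyp1b1 chr17:79715012-79715311 on the minus strand and that of Tiparp chr3:65528197-65528496 on the plus strand.
Ahrr: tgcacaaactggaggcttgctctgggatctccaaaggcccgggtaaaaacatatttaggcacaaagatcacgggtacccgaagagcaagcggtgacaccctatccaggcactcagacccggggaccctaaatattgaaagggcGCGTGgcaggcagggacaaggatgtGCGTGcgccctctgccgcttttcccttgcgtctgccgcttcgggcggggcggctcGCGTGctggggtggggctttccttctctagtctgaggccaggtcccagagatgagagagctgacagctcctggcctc
Cyp1a1: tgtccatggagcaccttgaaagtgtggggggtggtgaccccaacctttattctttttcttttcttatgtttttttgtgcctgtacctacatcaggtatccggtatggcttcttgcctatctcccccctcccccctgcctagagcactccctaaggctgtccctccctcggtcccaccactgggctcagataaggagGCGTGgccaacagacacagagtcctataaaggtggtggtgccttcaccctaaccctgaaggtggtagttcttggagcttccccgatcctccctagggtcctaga
Cyp1b1: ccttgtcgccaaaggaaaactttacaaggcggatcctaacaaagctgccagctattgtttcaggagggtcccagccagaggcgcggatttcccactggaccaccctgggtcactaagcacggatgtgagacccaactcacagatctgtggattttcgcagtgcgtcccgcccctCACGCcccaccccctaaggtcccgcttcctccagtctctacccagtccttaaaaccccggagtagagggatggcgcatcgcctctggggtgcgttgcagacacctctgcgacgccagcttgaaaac
Tiparp: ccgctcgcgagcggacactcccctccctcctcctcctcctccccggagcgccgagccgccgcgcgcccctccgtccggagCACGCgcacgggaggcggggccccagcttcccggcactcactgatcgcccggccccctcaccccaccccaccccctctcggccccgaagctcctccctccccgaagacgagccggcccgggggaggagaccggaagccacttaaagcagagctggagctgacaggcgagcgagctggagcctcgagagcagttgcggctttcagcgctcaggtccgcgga

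Of the 7 members, 6 matched a promoter window, and 5 of these 6 hold GCGTG on either strand. Ahr is the member without a window, so its promoter was not searched for any of the motifs below. Among all 32851 windows 32.4% hold it, so a single copy of so short a motif is common. Ahrr holds 3 copies, the nearest of which begin 27 and 82 bases before the start, and 11.1% of all windows hold 2 or more. The longer form TNGCGTG, which contains the shorter one, was found only in the Ahrr window among the members and in 5.07% of all windows. The copy of Cyp1a1 begins 54 bases before the start, that of Cyp1b1 76, that of Tiparp 170 and that of Arnt 29. The Nqo1 window holds neither GCGTG nor the antioxidant response element core TGACNNNGC, which 12.4% of all windows hold and the Arnt window holds in 2 copies. AGATAA, one form of the GATA motif, is in the Cyp1a1 window and in 11.2% of all windows. No copy of GCGTG in these windows overlaps TGACNNNGC or AGATAA. These are matches of letters in short windows, and binding was not measured.

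The Ahrr probes lie on the minus strand of chromosome 13 (mm9). Probe 1, at 74348566 to 74348612, gave 5649 with control siRNA and 5629 with GATA1 siRNA. Probe 2, at 74350685 to 74350744, gave 250.4 and 218.2. After scaling both were lower on the GATA1 siRNA array, by -0.17 ± 0.20 and -0.36 ± 0.21, and the gene stood at -0.27 ± 0.14. This is the largest negative difference among the targets, within the central 95% of all genes, and the dimmer probe accounts for most of it.

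Cyp1a1 encodes the cytochrome P450 that is the most widely used readout of receptor activity. Its single probe, on the plus strand of chromosome 9 at 57551535 to 57551594 (mm9), gave 3.13 with control siRNA and 2.73 with GATA1 siRNA. Neither value was well above background, so no difference is given. Cyp1a2, its neighbour in the same enzyme family, was likewise not well above background, with 3.19 and 2.77.

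Cyp1b1 encodes a related P450 that is also found outside the liver. Its probe, on the minus strand of chromosome 17 at 80106547 to 80106606 (mm9), gave 1937 with control siRNA and 2137 with GATA1 siRNA. After scaling the difference was -0.02 ± 0.20, and its sign depends on the processing (0.0008 with normexp and 0.04 with the scaling of the authors' deposited table). That table shifts the difference of every gene by 0.06, and the median of all genes with it was 0.07.

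Tiparp encodes an ADP-ribosyltransferase that modifies the receptor and marks it for degradation. Its probes lie on the plus strand of chromosome 3 (mm9). Probe 1, at 65357710 to 65357769, gave 7895 with control siRNA and 7909 with GATA1 siRNA. Probe 2, at 65358749 to 65358808, gave 6908 and 7218. The scaled differences were -0.16 ± 0.20 and -0.10 ± 0.20, and the gene stood at -0.13 ± 0.14. Both differences were within the software error, but larger than the median SD of repeated spots of similar signal (0.03 for either probe).

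Nqo1 encodes a quinone reductase that answers both to the receptor and to NRF2, the factor of the antioxidant response. Its probe, on the minus strand of chromosome 8 at 109912440 to 109912499 (mm9), gave 5793 with control siRNA and 8169 with GATA1 siRNA. Its difference of 0.33 ± 0.20 was the largest positive one among the members, and 1426th from the highest of the 20519 genes.

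The members can also be set against Ahr within the same arrays, where a common scaling factor cancels. Ahr was chosen for its low difference and only 0.385% of all measured genes lay below it, so that the others lie above it is given by the choice, and the gaps are a description. Tiparp exceeded Ahr by 0.99 ± 0.21, Cyp1b1 by 1.10 ± 0.25 and Ahrr by 0.86 ± 0.21. Nqo1 exceeded it by 1.46 ± 0.25 and Arnt by 1.37 ± 0.22. Over 11 other processing choices these gaps ranged from 0.78 to 0.99 for Tiparp, from 0.88 to 1.10 for Cyp1b1 and from 0.67 to 0.89 for Ahrr. Of the 4 measured targets (Ahrr included) 3 were below 0 and 1 above, none by as much as 1.5-fold. Of all measured genes 52.7% were above 0. The sign of Cyp1b1, 1 of the 3 below 0, depends on the processing, so this count shows no direction of the targets. The software error of a single bright probe was about 0.20, the repeated spots of bright probes gave a median SD near 0.03, and neither covers differences between cultures.

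**Figure D2:**
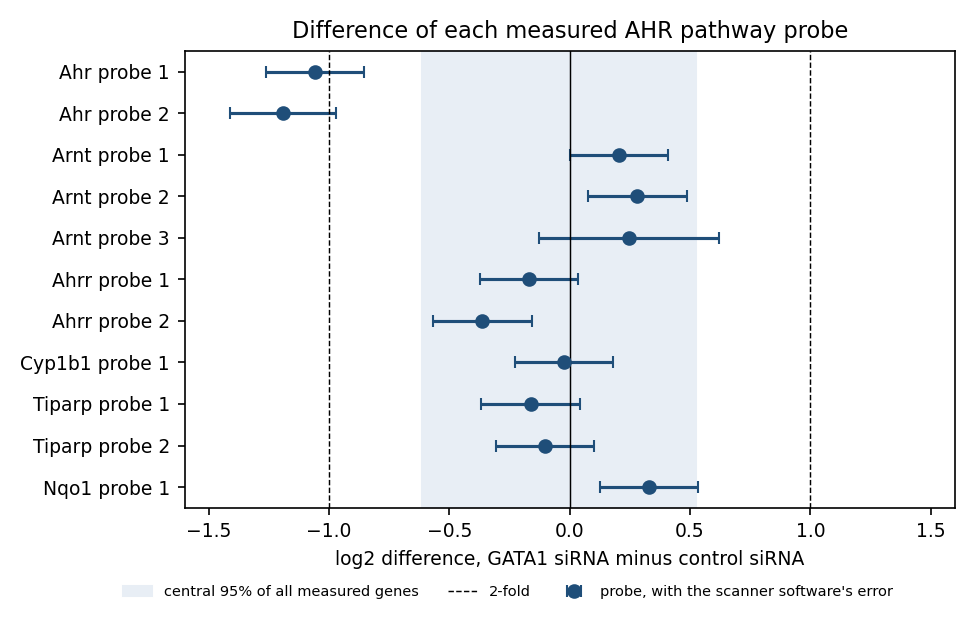
The log2 difference of each of the 11 measured probes, GATA1 siRNA minus control siRNA, with bars for the scanner software's error, shading for the central 95% of all measured genes (-0.62 to 0.52) and dashed lines at 2-fold. Both Ahr probes (-1.06 and -1.19) lie beyond the shading and the 9 probes of the other members lie inside it.

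Other genes of the pathway were described by lists, each beside all measured genes, of which 52.7% were above 0. Of all genes, 1.83% were at least 1.5-fold higher and 2.77% at least 1.5-fold lower. The list drawn up for the cytoplasmic complex of the receptor had 7 of 8 genes measured, with a median of 0.11 and none past 1.5-fold. Whether each listed gene takes part in that complex was not checked. The listed genes ran from Ptges3, the p23 cochaperone, at 0.22 down to Pelo at -0.11. The chaperone Hsp90ab1 was bright (61018 and 71819) and stood at 0.07.

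The bHLH-PAS family and its coactivators had 16 of 21 genes measured, with a median of -0.02 and 8 on either side of 0. With the scaling of the authors' table their median was 0.04 and that of all genes 0.07. Hif1a, the oxygen-regulated factor that also pairs with ARNT, was lowest at -0.73, but its 2 probes gave -1.04 and -0.41 and so disagree on the size. Its brighter probe gave 1975 with control siRNA and 1074 with GATA1 siRNA. Ncoa1, a coactivator, was highest at 0.66, with 3 probes between 0.32 and 0.87. These were the only list members past 1.5-fold in either direction, and none was past 2-fold.

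Among 33 other genes described as responsive to the receptor, 30 were on the array and 20 measured, 12 above 0 and 8 below, with a median of 0.07. None was past 2-fold. Itgae, an integrin chain of tissue-resident lymphocytes and dendritic cells, was highest at 0.71 (signals of 49.1 and 89.7), and Hes1, a transcriptional repressor of the Notch response, lowest at -0.84 (63.5 and 39.7). Both rest on 1 dim probe. Aldh3a1, an aldehyde dehydrogenase of the classic receptor battery, was bright (6850 and 7622) and stood at -0.07 over 2 probes. With probes under background counted, the median of this list turned to -0.10 and that of all genes to -0.09.

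Enzymes that make or use tryptophan-derived ligands had 9 of 15 genes measured, with a median of -0.03 (0.09 with quantile scaling). Ddc, the decarboxylase that makes serotonin, was lowest at -0.87 over 2 probes (-0.96 and -0.78), and Haao, a dioxygenase of the kynurenine route, highest at 0.76. Ido1, Ido2 and Tdo2, which open the kynurenine route, were well above background on neither array. Tph1, the tryptophan hydroxylase of mast cells, was very bright (304237 and 326817) and differed by -0.06.

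Of 25 genes of the NRF2 response besides Nqo1, 24 were measured, 23 of them above 0, with a median of 0.22 that ranged from 0.17 to 0.28 over the other processing choices. Osgin1, an oxidative stress-induced growth inhibitor, stood at 0.90 (2147 and 4504). The glutathione transferase Gstm1 stood at 0.79 and the haem oxygenase Hmox1 at 0.63. These 3 of the 24 were the ones past 1.5-fold, against 1.83% of all genes at least 1.5-fold higher, and none was past 2-fold. The exception below 0 was Slc7a11, a cystine transporter, at -0.17 with signals of 18.3 on both arrays. Nfe2l2, the gene of NRF2 itself, differed by 0.09.

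The ADP-ribosyltransferase relatives of Tiparp were measured in all 13 cases, 11 above 0, with a median of 0.21 (0.08 with normexp). Parp8 was highest at 0.95 (524.5 and 1138) and the only one past 1.5-fold, and Parp6 lowest at -0.02. Tiparp, at -0.13, lay below each of the 13.

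**Figure D3:**
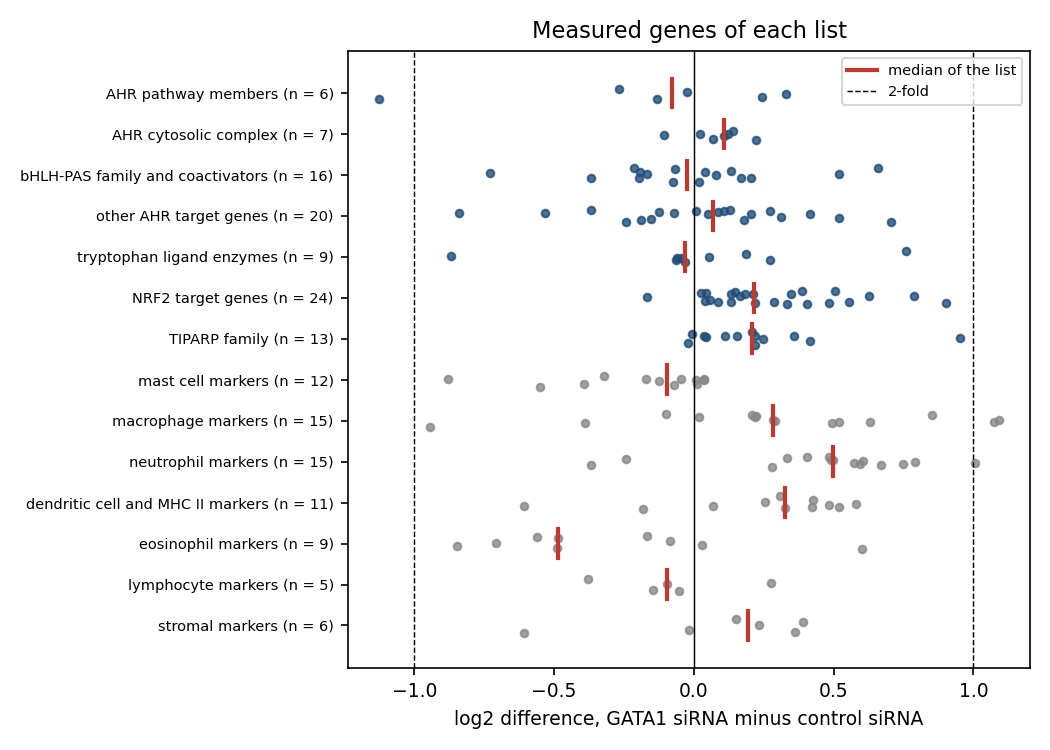
The log2 difference, GATA1 siRNA minus control siRNA, of each measured gene in the 7 pathway lists (blue) and 7 cell type marker lists (grey), with red bars for list medians and dashed lines at 2-fold. Ahr is the leftmost point of the figure, and the NRF2 genes lie to the right of 0 except Slc7a11.

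Markers of other cell types differed between the cultures alongside Ahr. Macrophage markers had 15 of 19 genes measured and a median of 0.28, with 12 above 0. Ms4a7 stood at 1.09, the lysosomal protein Cd68 at 1.07, the factor Maf at 0.85 and Adgre1 at 0.63, against the chemokine receptor Cx3cr1 at -0.94. Their summed level was 33.9 with control siRNA and 49.0 with GATA1 siRNA. Much of this rise came from Cd68, the brightest gene of the list (5340 and 12133 at its brighter probe). C1qa and Siglec1 were well above background on neither array.

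Neutrophil markers had a median of 0.50 over 15 of 17 genes, 13 above 0. Highest was Itgb2l at 1.01, which rests on 1 dim measured probe (27.6 and 62.2). Below it came Ltf (0.79), Ngp (0.75), Camp (0.67), S100a8 (0.61) and S100a9 (0.60), and Ctsg was lowest at -0.37. The summed level of the neutrophil list was 465.5 and 447.7, and Mmp9 and Retnlg were not well above background. Most of both sums came from the 2 genes below 0, Csf3r (-0.24, signals of 80316 and 76077) and Ctsg (31238 and 27172). Brightness of different probes is not comparable, so such sums follow the brightest probes. Dendritic cell and MHC class II markers had a median of 0.33 over 11 of 14 genes, from H2-Aa at 0.58 to Ccl17 at -0.61, with sums of 168.0 and 152.4, and Xcr1, Clec9a and Cd209a were not well above background. Most of both dendritic cell sums came from Siglech (94015 and 92366 at its brighter probe), whose 2 measured probes disagree (-0.19 and 0.33). Past 1.5-fold higher were 4 of the 15 macrophage genes, 6 of the 15 neutrophil genes and none of the 11 dendritic cell genes, against 1.83% of all genes, and 1 macrophage and 1 dendritic cell gene were past it lower.

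Eosinophil markers had a median of -0.48 over 9 genes, 7 below 0, from Siglecf at 0.60 (dim) through Prg3 (-0.71) to Epx at -0.85, with sums of 35.1 and 26.5. Lymphocyte markers had 5 of 15 genes measured with a median of -0.10, from Il7r at 0.28 to Cd79a at -0.38, and sums of 9.45 and 9.15. Of the rest 10 were not well above background, among them Cd3d and Cd3g of the T cell receptor complex, whereas Cd3e of the same complex (1117 and 1134) and Cd4 (2403 and 2555) were measured. Stromal markers had 6 of 12 measured with a median of 0.19, from Pdgfrb at 0.39 to Timp3 at -0.61, and sums of 248.1 and 292.1, and Col1a1, Col3a1, Dcn, Lum, Pdgfra and Cdh5 were not well above background. Nearly all of both stromal sums came from Vim alone (0.23, signals of 74240 and 97950). The mast cell markers had a median of -0.10 over 12 genes, from Cpa3 at 0.04 to Mcpt4 at -0.88, and sums of 2803 and 2557. Several of these medians move with the processing. Without a filter on dim probes the dendritic cell list stood at 0.13, the lymphocyte list at -0.32 and the stromal list at -0.12. The median of all genes was then -0.09. With a stricter filter the macrophage list stood at 0.49 and the stromal list at 0.30, and with normexp the eosinophil list stood at -0.23. With the scaling of the authors' table the mast cell list stood at -0.04 and the median of all genes at 0.07. The part of any of these in the Ahr difference was not tested.

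**Figure D4:**
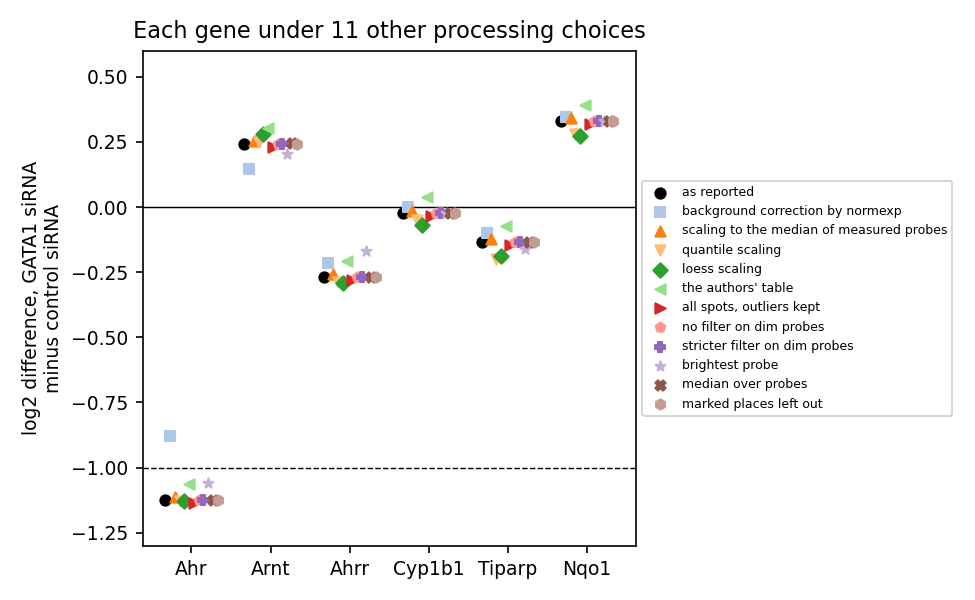
The log2 difference of each measured member, GATA1 siRNA minus control siRNA, as reported (black) and under 11 other processing choices (coloured symbols), with a dashed line at 2-fold lower. Ahr stays between -1.14 and -0.88 and passes 2-fold in 10 of the 11, and Cyp1b1 crosses 0 with normexp and with the scaling of the authors' deposited table.

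With 2 arrays the pattern of a gene is a single difference, and after the dimmest 25% of measured genes by mean level were set aside, the 5 nearest to Ahr in it among genes with a RefSeq symbol were Tdrp (-1.12), Cyrib (-1.13), Fgf2 (-1.12), Tpsg1 (-1.11) and Cd55b (-1.11), at gaps of at most 0.0117. Tdrp has 2 probes, at -1.19 and -1.06. Fgf2 has a probe in a patch of adjacent spots that differ 4-fold, and the probes of Cd55b disagree (-1.49 and -0.74).

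No other probe on the array lies within 100 kb of the Ahr probes in the array annotation. Near the other members, neighbouring genes did not share a common direction. Ctsk, a cathepsin of osteoclasts and macrophages, lies 12025 bp from an Arnt probe and stood at -1.21 (487.5 and 236.9), whereas Ctss, a cathepsin of antigen-presenting cells 59105 bp from it, stood at 0.67 (1959 and 3505). The 3 measured probes near Cyp1b1, all on the opposite strand, were below 0 (-0.68 to -0.24), and the 3 near Nqo1 lay between -0.08 and -0.06, away from the value of Nqo1 itself.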

How the data were processed

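The deposited spot signals are intensity values. Per the file headers, Agilent Feature Extraction 10.7.3.1 subtracted the background and detrended the signal over the array surface, with no scaling from one array to the other. The authors also deposited a normalized intensity table, which equals each array's processed signal divided by a constant and has a median of 1 on both arrays. How it was made is not stated, so it was used only as another scaling.

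The analysis left out controls and outlier-marked spots (117 with control siRNA, 133 with GATA1 siRNA), took the mean log2 signal of a probe's repeated spots, and divided each array by its 75th percentile over the remaining 55659 probes. With control siRNA 53.3% of the gene spots were well above background, with GATA1 siRNA 55.7%, and none was saturated. A gene is the mean over its measured probes. Probes were named by RefSeq accession (assembly GRCm38.p6, names only), then by symbol. With 1 array per group a rule of size (2-fold) replaced a test, and precision is limited by having only 2 arrays.

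The alternatives were limma 3.58.1 normexp (R 4.3.3), 5 other scalings (the authors' table and all spots with outliers kept among them), no or a stricter filter on dim probes, the brightest or median probe of a gene, and leaving out spots with at least 2 neighbours that differ 4-fold. The other analysis used Python 3.11.15. The members, the lists and the rules were chosen with earlier results of these data known. Named genes are the members, Gata1, each list's highest and lowest gene and its genes past 1.5-fold, the 5 genes nearest to Ahr outside the dimmest 25% and array neighbours within 100 kb. Fcer1a, Kit, Hsp90ab1, Cyp1a2, Aldh3a1, Ido1, Ido2, Tdo2, Tph1, Nfe2l2, Tpsb2, Slc18a2, Il1rl1, Cd3d, Cd3e, Cd3g, Cd4, Csf3r, Siglech, Vim and the marker genes named as not well above background were added after their values were seen.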

Additional observations from a re-analysis of the deposited data

How the results depend on the processing

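Of the alternatives for the 6 measured members and Gata1, the one that ended a 2-fold call was normexp, under which Ahr stood at -0.88, since the added offset shrinks the difference of its dim probe. Ahr, Arnt, Ahrr, Tiparp, Nqo1 and Gata1 kept their sign under all 11, and Cyp1b1 under 9. Cyp1a1 has no value with a filter on dim probes. The counts over all genes moved more. The 60 genes at least 2-fold higher and 124 lower became 17 and 32 with normexp, 739 and 1137 without the filter on dim probes, and 20 and 61 with a stricter one. Leaving out patches of spots whose neighbours differ 4-fold gave 38 higher. A 1.5-fold rule gave 376 and 568, and a 3-fold rule 12 and 35. The share of higher genes among those past 2-fold was 32.6%, and 42.8% with loess and 42.9% with the authors' table. Of the medians of the 13 lists under the alternatives, 117 moved by less than 0.06, the median SD of repeated spots, and 26 by more. The authors' table, which shifts every gene by the same 0.06, is among the latter for each list. No paired analysis was possible because each group is 1 array, and for the same reason no replicate could be left out. Probes close to the lowest signal called above background (15.2 and 13.3), such as Arnt probe 3, limit what can be said of single values.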
